A study of Mus musculus with 25 samples.

Results

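A set of 42 genes of the cell division cycle and DNA replication, from cyclins and mitotic kinases to the replicative helicase and the enzymes that supply deoxynucleotides, were followed through bone marrow neutrophil libraries of mice lacking components of cell death signalling. The genes were taken by symbol from a table of 35741 gene symbols, which held all 42, and all 42 passed the filter on low counts that left 16206 genes for testing. RNA-seq was run on marrow cells of female C57BL/6J mice aged 6 to 13 weeks, collected at the interface of a 68%/78% Percoll density gradient, a separation that enriches neutrophils and does not sort them. The groups were wild-type (3 libraries), Ripk3-/- (3), Mlkl-/- (3) and Ripk3-/- Mlkl-/- (2), which carried an intact Ptpn6, and Ripk3-/- Ptpn6∆PMN (3), Mlkl-/- Ptpn6∆PMN (2) and Ripk3-/- Mlkl-/- Ptpn6∆PMN (3), in which Ptpn6 was deleted in neutrophils. In Casp8∆PMN Mlkl-/- Ptpn6∆PMN (2) and Ripk3-/- Mlkl-/- Casp8∆PMN Ptpn6∆PMN (2) Casp8 was deleted as well. A single Casp8∆PMN Ptpn6∆PMN library came from an inflamed mouse, all others being labelled as not inflamed, and entered no test. A further library, whose title and genotype label contradict each other, was placed in no group. Ptpn6 encodes the phosphatase SHP-1, Ripk3 and Mlkl encode the kinase and the membrane-permeabilising effector of necroptosis, and Casp8 encodes the protease caspase-8. The labels name no Cre driver for the ∆PMN alleles, no library combined such an allele with wild-type Ripk3 and Mlkl other than the single inflamed one, and no library carried the Cre deletion with intact Ptpn6.

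Neutrophils arise in the marrow from dividing promyelocytes and myelocytes, and division stops when the cell becomes a metamyelocyte, so transcripts of the division machinery mark the precursors rather than the segmented cell. The genes fall in waves: cyclin E and E2F at the G1/S boundary, the MCM helicase and its loaders before and during replication, and cyclin B, Plk1 and the spindle proteins towards mitosis. G1/S genes are controlled largely through E2F sites, whereas many late genes carry a CHR element, which the MuvB complexes DREAM and B-MYB-MuvB bind, together with CCAAT boxes bound by NF-Y. In bulk RNA, fewer cells of a type and less RNA per cell cannot be told apart, and this holds for every level below.

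The promoters below are shown because they set genes that lay far below wild-type in Mlkl-/- libraries beside one that did not. Ccnb2 (cyclin B2) and Plk1 (polo-like kinase) were among the mitotic genes with the largest differences, Mcm5 (a subunit of the helicase) had the largest difference of the licensing genes, and Kif23 (a kinesin of the central spindle) hardly differed. They were chosen after their values were seen. Each is 250 bases before to 50 bases after the RefSeq start on GRCm38.p6, written 5′ to 3′ on the gene's strand: chr9:70421505-70421804 (minus), chr7:122159185-122159484 (plus), chr8:75109259-75109558 (plus) and chr9:61946750-61947049 (minus). Capitals mark matches, on either strand, to the CHR letters TTTGAA, to CCAAT, and to the E2F letters TTTCCCGC, TTTGGCGC or TTTCGCGC.
Ccnb2: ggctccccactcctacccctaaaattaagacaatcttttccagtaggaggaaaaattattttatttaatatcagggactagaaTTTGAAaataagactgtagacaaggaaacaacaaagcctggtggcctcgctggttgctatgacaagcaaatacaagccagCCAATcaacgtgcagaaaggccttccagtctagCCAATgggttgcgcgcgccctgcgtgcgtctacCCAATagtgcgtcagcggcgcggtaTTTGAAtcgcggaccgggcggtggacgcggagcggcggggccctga
Plk1: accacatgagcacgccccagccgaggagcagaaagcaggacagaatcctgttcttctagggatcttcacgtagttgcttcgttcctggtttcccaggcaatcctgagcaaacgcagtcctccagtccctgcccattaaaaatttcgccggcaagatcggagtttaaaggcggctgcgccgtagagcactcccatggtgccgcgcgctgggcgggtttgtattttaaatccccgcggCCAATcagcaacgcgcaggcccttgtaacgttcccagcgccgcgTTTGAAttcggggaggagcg
Mcm5: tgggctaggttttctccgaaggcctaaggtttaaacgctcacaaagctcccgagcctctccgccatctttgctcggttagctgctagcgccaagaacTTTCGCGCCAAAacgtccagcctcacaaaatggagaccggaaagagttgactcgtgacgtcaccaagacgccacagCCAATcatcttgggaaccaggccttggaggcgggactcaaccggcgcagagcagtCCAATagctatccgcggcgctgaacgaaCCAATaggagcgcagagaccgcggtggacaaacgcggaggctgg
Kif23: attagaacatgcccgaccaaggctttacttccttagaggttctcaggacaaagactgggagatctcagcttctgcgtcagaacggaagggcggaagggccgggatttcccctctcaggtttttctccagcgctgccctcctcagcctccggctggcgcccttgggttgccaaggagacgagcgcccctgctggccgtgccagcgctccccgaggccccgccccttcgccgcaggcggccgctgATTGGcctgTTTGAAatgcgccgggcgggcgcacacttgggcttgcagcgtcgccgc
Ccnb2 holds 2 CHR matches, the second 5 bases after the start, and 3 CCAAT matches. Plk1 holds 1 of each, with the CHR match 31 bases after the start. In Mcm5 no CHR match lies in the window, and TTTCGCGC on the plus strand overlaps TTTGGCGC on the minus strand between bases 98 and 109. Kif23 holds a CHR match 3 bases after the start and a CCAAT match on the opposite strand.

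RefSeq promoters could be matched to 35 of the 42 genes by symbol, without Aurkb, Ccna2, Ccne2, Gins2, Mcm4, Stmn1 and Tpx2. A CHR match stood in 15 of the 35 (42.9%), against 18.1% of the 27025 promoters in the table. CCAAT stood in 26 (74.3%, against 37.9%) and an E2F match in 8 (22.9%, against 1.91%). Of 9 promoters of mitotic cyclins, kinases and checkpoint genes, 7 held a CHR match (77.8%) and 1 an E2F match (11.1%), and of 9 of spindle, chromosome and cytokinesis genes 6 held CHR (66.7%) and 0 held E2F. Of 8 licensing and firing promoters, 2 held CHR (25%) and 6 held E2F (75.0%), and the 5 of the replication fork and nucleotide supply held neither. Of 4 G1/S and chromatin promoters 0 held CHR and 1 held E2F. These are matches of letters within 300 bases, and a promoter without a match may hold the element elsewhere or in other letters.

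The deposited totals lay between 21598177 and 23187676 estimated counts per library, so depth was near equal. Levels are given in CPM, the usual unit of counts scaled for depth, after scaling by the trimmed mean of M values (TMM). Of the targeted genes, Ptpn6 was at 555.3 to 609.0 CPM in wild-type and 119.2 to 314.5 CPM in the Ptpn6∆PMN libraries, and Casp8 at 33.49 to 36.90 CPM in wild-type and 16.32 to 23.77 CPM in the Casp8∆PMN libraries. Ripk3 was at 8.529 to 10.17 CPM in wild-type and at most 0.1534 CPM in the Ripk3-/- groups. In Mlkl-/- libraries, which the labels give as intact for Ripk3, it was at 2.512 to 4.748 CPM and was called lower than in wild-type (log2 difference -1.52, SE 0.32, adjusted p = 0.0229 in edgeR). Mlkl was at 3.504 to 4.722 CPM in wild-type and 0.2324 to 1.643 CPM in the Mlkl-/- groups, and at 1.395 to 1.856 CPM in Ripk3-/- libraries, which the labels give as intact for Mlkl and which overlapped the Mlkl-/- groups. Neutrophil markers summed to 51670 to 121100 CPM in every library. The libraries are labelled as separate samples of a genotype, and p-values measure the spread between them.

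Expressed per kilobase of exon, the most abundant of the 42 was Stmn1, which destabilises microtubules, at 34.7 CPM per kilobase on average over the 23 tested libraries. Next came the sliding clamp Pcna (23.2), Kif23 (18.9), the proliferation antigen Mki67 (18.1) and topoisomerase Top2a (17.3). The lowest was the GINS subunit Gins2 (0.335), whose 6 to 62 counts per library make its ratios imprecise. Of the other ranges over the 23 libraries, those of the mitotic regulators were the following. Cyclins Ccna2 and Ccnb1, which drive entry into mitosis, ranged over 17.5 to 86.4 CPM and 4.451 to 21.96 CPM, and cyclin Ccnb2 over 6.961 to 32.8 CPM. Cdk1, the kinase these cyclins activate, ranged over 5.019 to 23.5 CPM. Cdc20, which activates the anaphase-promoting ubiquitin ligase, ranged over 6.961 to 29.4 CPM, and Ube2c, its conjugating enzyme, over 17.7 to 58.2 CPM. Plk1 ranged over 6.771 to 32.2 CPM, the centrosomal kinase Aurka over 4.877 to 19.8 CPM and the chromosomal kinase Aurkb over 7.526 to 28.7 CPM. The spindle checkpoint kinases Bub1 and Bub1b ranged over 2.652 to 16.0 CPM and 5.587 to 34.7 CPM.

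Among spindle and chromosome genes, Mki67 ranged over 94.2 to 285.5 CPM and Top2a over 29.2 to 168.2 CPM. Birc5 (survivin, of the chromosomal passenger complex) ranged over 13.2 to 34 CPM. The kinetochore proteins Cenpe and Cenpf ranged over 6.44 to 28.0 CPM and 7.86 to 32.5 CPM. Kif11, the kinesin that separates spindle poles, ranged over 14.0 to 67.1 CPM, and Kif23 over 43.3 to 81.9 CPM. Microtubule proteins of the spindle ranged over 8.428 to 44.6 CPM (Tpx2), 12.0 to 47.3 CPM (Nusap1), 10.2 to 41.1 CPM (Prc1) and 12.3 to 89.8 CPM (Stmn1). For the replicative helicase subunits the ranges were 6.356 to 31.5 CPM (Mcm2), 6.44 to 35.2 CPM (Mcm3), 18.1 to 40.7 CPM (Mcm4), 8.192 to 42.1 CPM (Mcm5), 8.917 to 41.9 CPM (Mcm6) and 14.5 to 51.9 CPM (Mcm7). The helicase loaders Cdc6 and Cdt1 ranged over 2.591 to 11.8 CPM and 8.605 to 23.2 CPM. Of the factors that switch the helicase on, Gins2 ranged over 0.2934 to 2.401 CPM and Cdc45 over 15.3 to 24.7 CPM. Pcna ranged over 16.0 to 64.1 CPM. The ribonucleotide reductase subunits Rrm1 and Rrm2 ranged over 12.7 to 51.7 CPM and 16.3 to 67.2 CPM, thymidylate synthase Tyms over 12.3 to 20.1 CPM and thymidine kinase Tk1 over 3.276 to 15.4 CPM. At the G1/S boundary, cyclins Ccne1 and Ccne2 ranged over 2.054 to 8.754 CPM and 1.803 to 7.445 CPM, and the transcription factor E2f1 over 4.83 to 14.8 CPM. Uhrf1, which maintains DNA methylation at the fork, ranged over 9.045 to 62.6 CPM, and the remodeller Hells over 2.178 to 11.3 CPM. Mlkl-/- replicate 3 held the lowest value of most mitotic and spindle genes. Tyms has an annotated copy that counting could mix with it, but Tyms-ps held 2.088 to 31.66 counts against 238.9 to 451.3 for Tyms. Gins2 lies 9.27 Mb from Mlkl on chromosome 8 and was the 1 gene of the 42 within 10 Mb of a targeted gene.

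**Figure D1:**
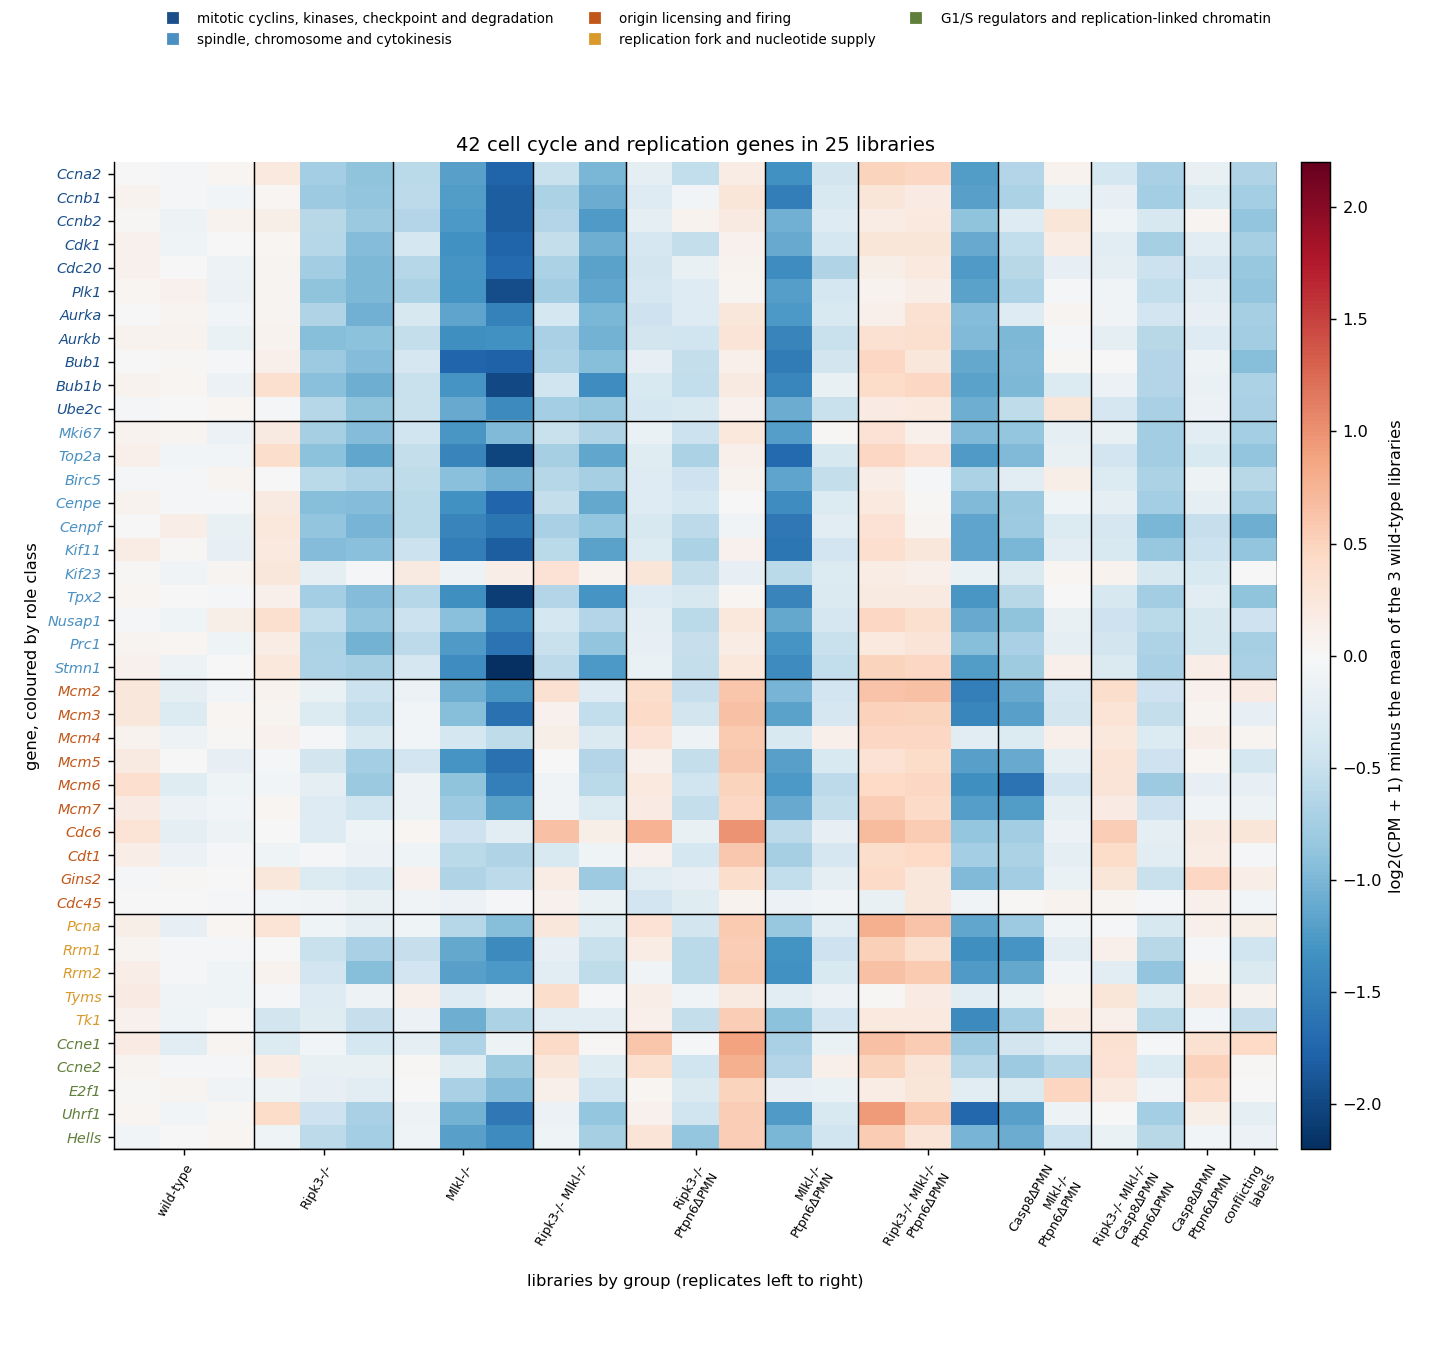
Level of each of the 42 genes (rows, grouped by role) in each library (columns, grouped by genotype), with colour giving log2(CPM + 1) minus the mean of the 3 wild-type libraries. Whole columns shift together: Mlkl-/- replicates 2 and 3, Mlkl-/- Ptpn6∆PMN replicate 1 and Ripk3-/- Mlkl-/- Ptpn6∆PMN replicate 3 are low for most genes. Kif23, Cdc45 and Tyms vary least over the tested libraries.

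The first comparison asks how loss of the necroptosis genes alone bears on the division programme. Against wild-type, 41 of the 42 genes had a lower mean estimate in Mlkl-/- libraries, with a median log2 difference of -0.95 against -0.03 over all genes tested. None passed edgeR's quasi-likelihood test at an adjusted p of 0.05, in a comparison where 1.16% of all genes did. The smallest adjusted p-values in edgeR were 0.0708 for Birc5, 0.0717 for Ccnb2 and 0.0842 for Plk1. At an unadjusted p under 0.05 stood 24 of 42 genes (57.1%), against 19.4% of all genes. In 28 of the 42 genes every Mlkl-/- library lay below every wild-type library, and 16.6% of all genes tested were separated in that direction.

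The mitotic regulators lay furthest down. For all 11 the groups did not overlap, all 11 had an unadjusted p under 0.05, and their median log2 difference was -1.21. Ccna2 stood at 61.7, 59.4 and 62.9 CPM in wild-type replicates 1 to 3 and at 40.5, 26.2 and 17.5 CPM in Mlkl-/- replicates 1 to 3. Its mean was 61.3 ± 1.79 CPM (SD, n = 3) against 28.1 ± 11.6 (n = 3), a log2 difference of -1.14 (SE 0.40, adjusted p = 0.153 in edgeR). The wild-type libraries are close together, and the Mlkl-/- libraries spread widely below them. Ube2c was at 47.4, 47.8 and 49.4 CPM in wild-type and 34.2, 21.8 and 17.7 CPM in Mlkl-/-, a difference of -0.99 (SE 0.32, adjusted p = 0.122 in edgeR). The largest difference of the 42 was that of Plk1, at 30.0, 31.1 and 26.5 CPM against 17.6, 11.2 and 6.771 CPM, or -1.31 (SE 0.38) on the log2 scale. Bub1, which senses unattached kinetochores, was at 11.5, 11.7 and 11.2 CPM in wild-type and 8.705, 2.744 and 2.652 CPM in Mlkl-/- (log2 difference -1.29, SE 0.49, edgeR adjusted p = 0.178). For Ccnb2 the values were 27.7, 25.04 and 28.6 CPM against 17.0, 10.7 and 6.961 CPM, a difference of -1.24 (SE 0.34). In each of these genes Mlkl-/- replicate 1 was nearest to wild-type.

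Of the 11 spindle, chromosome and cytokinesis genes, 10 were separated downwards and had an unadjusted p under 0.05, and the median log2 difference was -1.18. Mki67 was at 242.6, 238.6 and 208.9 CPM in wild-type and 169.2, 94.2 and 116.7 CPM in Mlkl-/- (log2 difference -0.88, SE 0.36, edgeR adjusted p = 0.200). Top2a, which untangles sister chromatids, was at 131.8, 117.4 and 117.3 CPM against 84.4, 44.1 and 29.2 CPM (-1.23, SE 0.47). Tpx2, which activates Aurora A on the spindle, was at 40.02, 38.4 and 37.4 CPM against 24.7, 14.6 and 8.428 CPM (-1.29, SE 0.41). Birc5 was at 30.0, 30.2 and 32.3 CPM against 20.7, 15.9 and 14.4 CPM, a smaller difference (-0.87, SE 0.24) with a smaller error. Kif23 departed from the rest of its class. It was at 66.4, 62.3 and 68.3 CPM in wild-type and 75.2, 60.9 and 72.9 CPM in Mlkl-/-, a log2 difference of 0.07 (SE 0.18, edgeR adjusted p = 0.851) that turns to -0.10 when plain library totals replace TMM.

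Genes of replication lay less far below wild-type. Over the 10 licensing and firing genes the median log2 difference was -0.64, with 1 unadjusted p under 0.05, that of Mcm5, and with Mcm5 and Cdc45 as the 2 whose groups did not overlap. Mcm7 was at 40.1, 32.5 and 34.1 CPM in wild-type and 32.6, 20.1 and 15.2 CPM in Mlkl-/- (-0.67, SE 0.39, edgeR adjusted p = 0.344). Mcm4, in the same helicase ring, was at 28.7, 24.96 and 27.7 CPM against 26.1, 20.6 and 18.1 CPM (-0.34, SE 0.23). Mcm5 was at 31.9, 27.3 and 24.1 CPM against 20.3, 10.6 and 8.192 CPM (-1.10, SE 0.43). Cdc45 was at 20.9, 20.7 and 20.3 CPM against 19.6, 18.8 and 20.1 CPM, separated by a narrow margin and different by only -0.10 (SE 0.13). At the fork, 5 genes had a median of -0.66, and for Rrm1, Rrm2 and Tk1 the groups did not overlap. Pcna was at 40.5, 32.3 and 37.9 CPM against 34.2, 23.4 and 18.7 CPM (-0.55, SE 0.38), and Rrm2 at 47.2, 41.2 and 39.97 CPM against 31.7, 18.1 and 17.1 CPM (-0.95, SE 0.44). Tyms, which makes thymidylate, was at 17.2, 14.3 and 14.1 CPM against 16.4, 12.3 and 13.9 CPM (-0.11, SE 0.17). The 5 G1/S and chromatin genes had a median of -0.57 and no unadjusted p under 0.05. Uhrf1 was at 33.3, 30.8 and 32.9 CPM against 30.0, 15.1 and 10.2 CPM (-0.82, SE 0.53), and E2f1 at 10.5, 10.7 and 9.635 CPM against 10.3, 5.861 and 4.83 CPM (-0.57, SE 0.28). The difference between the role classes was not tested.

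**Figure D2:**
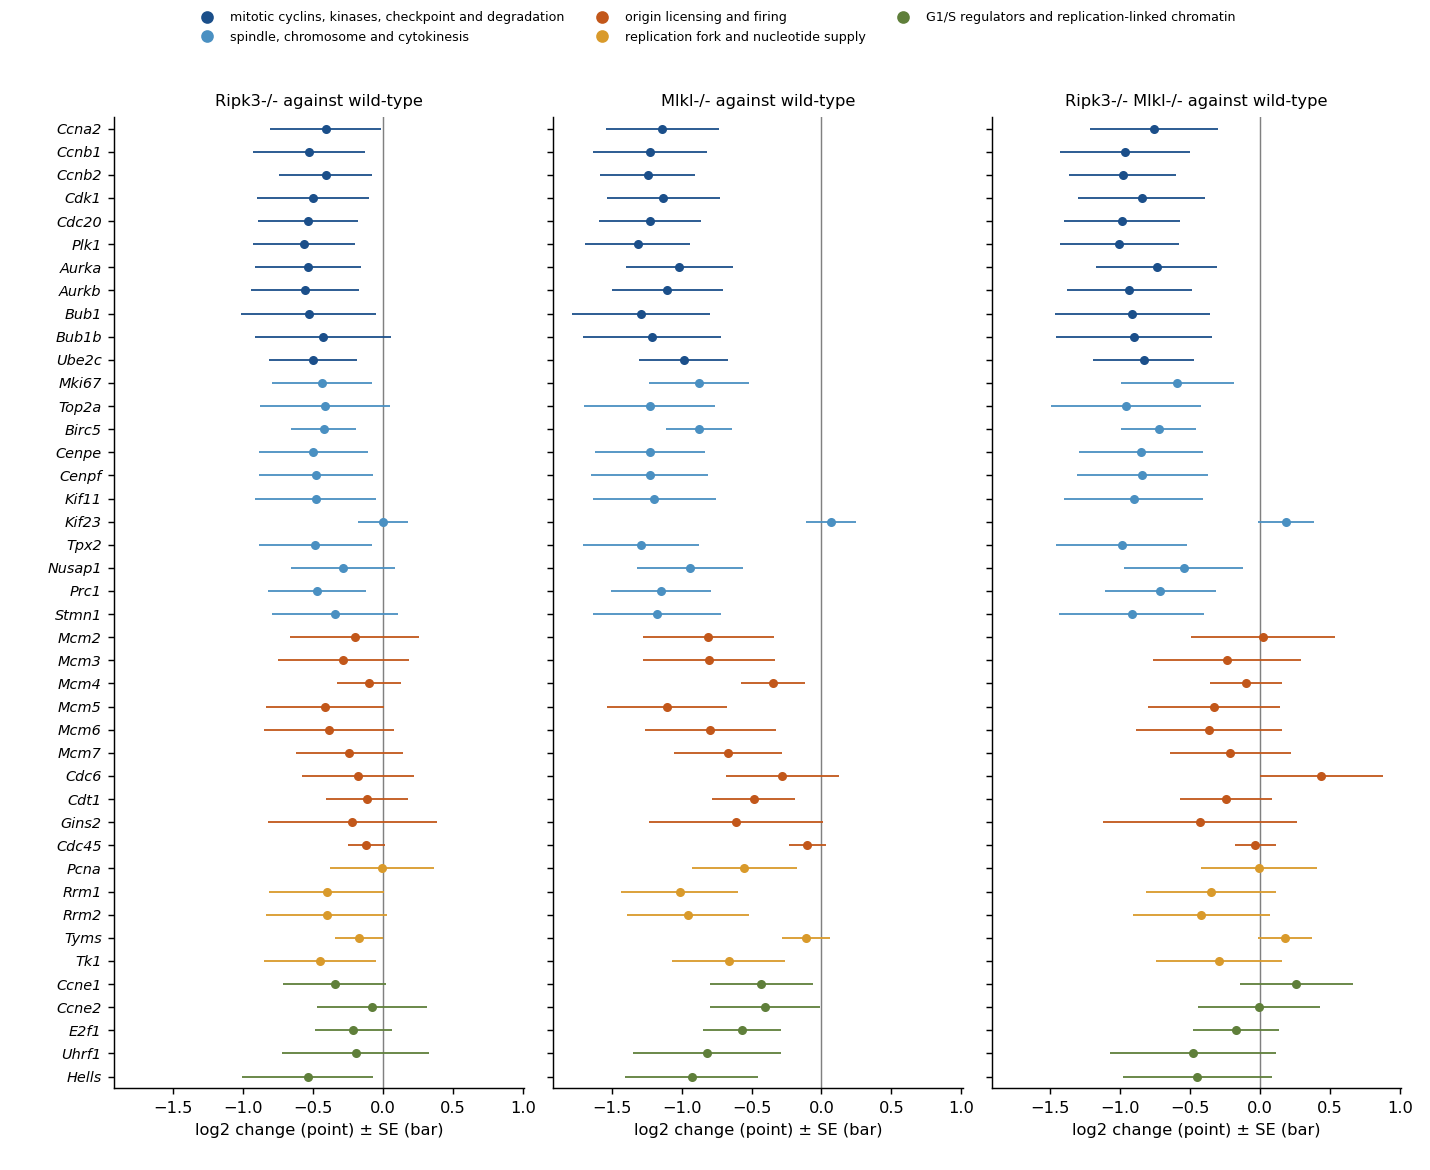
Log2 difference of each of the 42 genes from wild-type in Ripk3-/-, Mlkl-/- and Ripk3-/- Mlkl-/- libraries, with bars of 1 SE from the edgeR fit, genes grouped by role. Mitotic and spindle genes lie near -1 in Mlkl-/-, with medians of -1.21 and -1.18, Kif23 lies at 0.07, and no gene passed the adjusted threshold.

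Which libraries enter bears on these calls. With the Mlkl-/- and wild-type libraries fitted alone, edgeR called 20 of the 42 genes lower (8 mitotic, 9 spindle, 1 licensing, 2 fork), and DESeq2 on all 23 libraries called 10 lower (5 mitotic, 5 spindle). Without Mlkl-/- replicate 1, 13 were called and the median was -1.35, and without replicate 3 none was called and the median was -0.78. The fits that called some of the 42 also called more of all genes. Without Mlkl-/- replicate 1 that count was 589, against 188 (1.16%) with all libraries. The counts for the libraries fitted alone and for DESeq2 stand in the last paragraph.

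Ripk3-/- and Ripk3-/- Mlkl-/- libraries were compared with the same 3 wild-type libraries, so their differences share those controls. In Ripk3-/- all 42 estimates were below 0 with a median of -0.41. By mean CPM, Kif23 (66.45 against 65.67) and Pcna (37.24 against 36.9) lay slightly above wild-type. None of the 42 was called (0.228% of all genes were), none had an unadjusted p under 0.05 (6.86% of genes did), the smallest adjusted p in edgeR was 0.821, and DESeq2 called none. In 5 genes (Ube2c, Cdc45, Tk1, E2f1 and Hells) all Ripk3-/- libraries lay below wild-type, against 8.79% of all genes. Ripk3-/- replicate 1 stood apart: Ccna2 was at 71.5, 35.9 and 32.8 CPM in replicates 1 to 3, Ube2c at 47.2, 30.7 and 25.6, Mki67 at 262.5, 137.6 and 117.7, and Top2a at 159.4, 64.8 and 54.7. For Ccna2, Mki67 and Top2a replicate 1 lay above every wild-type library, and for Ube2c just below them. Without replicate 1 the median difference of the 42 genes was -0.71. Mcm7 was at 36.6, 29.0 and 25.9 CPM, Mcm4 at 28.8, 26.7 and 21.3, Pcna at 45.4, 34.5 and 31.8, and Rrm2 at 44.9, 31.8 and 21.8. Uhrf1 was at 43.2, 23.3 and 19.2 CPM, on both sides of wild-type, and E2f1 at 9.362, 8.878 and 8.639, just below it.

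In Ripk3-/- Mlkl-/- libraries 37 of 42 estimates were below 0 with a median of -0.51. None was called (1.04% of genes), and 6 had an unadjusted p under 0.05 (14.3% of the 42 and 14.3% of all genes). In 26 genes both libraries lay below every wild-type library, against 21% of all genes, and in 1, Kif23, both lay above (19.2%). The 26 were all 11 mitotic regulators, 10 of 11 spindle genes, 3 of 5 fork genes and 2 of 5 G1/S and chromatin genes. All 10 licensing genes overlapped wild-type. Medians were -0.91 for mitotic, -0.84 for spindle, -0.23 for licensing, -0.29 for fork and -0.17 for G1/S and chromatin genes. Ccna2 was at 43.4 and 30.0 CPM in replicates 2 and 3, Ube2c at 28.2 and 26.5, Mki67 at 164.1 and 144.7 and Top2a at 72.8 and 54.4. All of these lay below the lowest wild-type library. Mcm7 was at 33.7 and 28.4 CPM, Mcm4 at 29.7 and 21.5, Pcna at 44.0 and 30.4, Uhrf1 at 29.4 and 17.5, and E2f1 at 11.2 and 7.262, and of these only Uhrf1 lay wholly below wild-type. Rrm2 was at 36.2 and 28.6 CPM, also below. The smallest adjusted p in edgeR was that of Birc5 (-0.72, SE 0.27, adjusted p = 0.216). Fitted with wild-type alone, 19 genes were called lower in this comparison (9 mitotic, 10 spindle). More of all genes were called in that fit as well, with the count in the last paragraph.

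Differences among the 3 knockout groups were not called either. Mlkl-/- against Ripk3-/- gave a median of -0.55 with 39 genes below 0, 0 called (0.00617% of genes), 1 at an unadjusted p under 0.05 (5.02%) and all 42 overlapping (9.19% of genes were separated downwards and 6.41% upwards). Ripk3-/- Mlkl-/- against Mlkl-/- gave 0.33 with 42 above 0, 0 called (0.00617%), 0 at an unadjusted p under 0.05 (3.13%) and 3 genes separated upwards and 0 downwards (7.57% and 7.93% of genes). Ripk3-/- Mlkl-/- against Ripk3-/- gave -0.21, with 26 below 0, 0 called (0% of genes), 0 at an unadjusted p under 0.05 (3.68%) and 4 separated upwards (11.6%). None of these edgeR tests separates the knockout groups in any of the 42 genes, and DESeq2 called none either.

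Markers of other cells moved in part with these levels. B cell markers (11 of 12 in the table, none at 0 in every library) summed to 971.9 to 1086 CPM in wild-type and to 970.8, 782.3 and 620.6 CPM in Mlkl-/- replicates 1 to 3. In Ripk3-/- they summed to 1193, 994.7 and 1360 CPM, which is not the order of the division genes there. Stem and early progenitor markers (8 of 8) summed to 275.1 to 293.2 CPM in wild-type and 234.6, 153.8 and 118.1 CPM in Mlkl-/-. Myb weighs heavily in this sum, at 71.2 to 319.7 CPM over all libraries. Cd34, Flt3, Meis1, Hlf and Mycn did not exceed 7.138 CPM. Macrophage markers summed to 68.7 to 93.2 CPM in wild-type and 78.5, 159.9 and 199.4 CPM in Mlkl-/-. An azurophil granule and promyelocyte list of 10 genes held granule genes and others, such as Gfi1, Cebpe and Calr. Of the 10, 9 had estimates below 0 in Mlkl-/- with a median of -1.14 and none called. Their summed CPM, which abundant members dominate, was 1468 to 1909 against 1227 to 1429 in wild-type. Specific granule genes, made at the dividing myelocyte stage (9 of 10 in the table), had a median of -0.28 with none called. They summed to 40740, 46100 and 42110 CPM in wild-type, 38180, 36480 and 33540 CPM in Mlkl-/- and 47040, 37710 and 33690 CPM in Ripk3-/- replicates 1 to 3. Gelatinase granule and mature neutrophil genes had a median of 0.45, none called. The azurophil genes Elane (-2.08 and -2.11), Prtn3 (-1.95 and -2.04) and Mpo (-1.58 and -1.99) were also below wild-type in Ripk3-/- and Ripk3-/- Mlkl-/-. Srgn lay above 0 in both (0.55 and 0.62), and Calr in Ripk3-/- (0.03). The rest lay below 0, and none of the 10 was called. Erythroid markers (13 of 14 in the table) summed to 2629, 5043 and 5949 CPM in wild-type, 4221, 5809 and 7093 CPM in Mlkl-/-, 2367, 9835 and 5021 CPM in Ripk3-/-, and 5031 and 10460 CPM in Ripk3-/- Mlkl-/-. In each of these knockout groups the lowest erythroid sum was that of the library in which most of the 42 genes were highest. Mlkl-/- Ptpn6∆PMN (6636 and 4354 CPM) and Ripk3-/- Mlkl-/- Casp8∆PMN Ptpn6∆PMN libraries (1511 and 1577 CPM) kept that order. Ripk3-/- Ptpn6∆PMN libraries (3662, 727 and 4798 CPM) and Casp8∆PMN Mlkl-/- Ptpn6∆PMN libraries (778.6 and 3489 CPM) reversed it. There the lowest sum was that of the library lowest for most of the 42. In Ripk3-/- Mlkl-/- Ptpn6∆PMN (5063, 2492 and 2787 CPM) the lowest sum was that of replicate 2, where the 42 genes were high. The receptor gene Csf1r, a monocyte and macrophage marker, was called higher in Mlkl-/- (0.74, SE 0.14, adjusted p = 0.0166 in edgeR). The monocyte list that holds it summed to 930.2, 1015 and 925.8 CPM in wild-type and to 951.2, 1073 and 1029 CPM in Mlkl-/-, which overlapped. In Ripk3-/- Mlkl-/- replicates 2 and 3 that sum was 1196 and 888.3 CPM, on both sides of wild-type. In Ripk3-/- Mlkl-/- replicates 2 and 3, stem and early progenitor markers summed to 145.8 and 178.9 CPM, both below wild-type, B cell markers to 650.6 and 1045 CPM and macrophage markers to 72.5 and 201.6 CPM. There edgeR called Gata2, on both the progenitor and the basophil and mast cell lists (-1.91, adjusted p = 0.0298), the megakaryocyte marker Itga2b (-1.40, adjusted p = 0.0213) and another basophil and mast cell marker, Ms4a2 (-1.75, adjusted p = 0.0463) lower, and the macrophage marker Mertk (1.999, adjusted p = 0.0161) and Csf1r (0.76, adjusted p = 0.0261) higher. The part of these cells in the levels of the 42 genes was not tested.

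**Figure D3:**
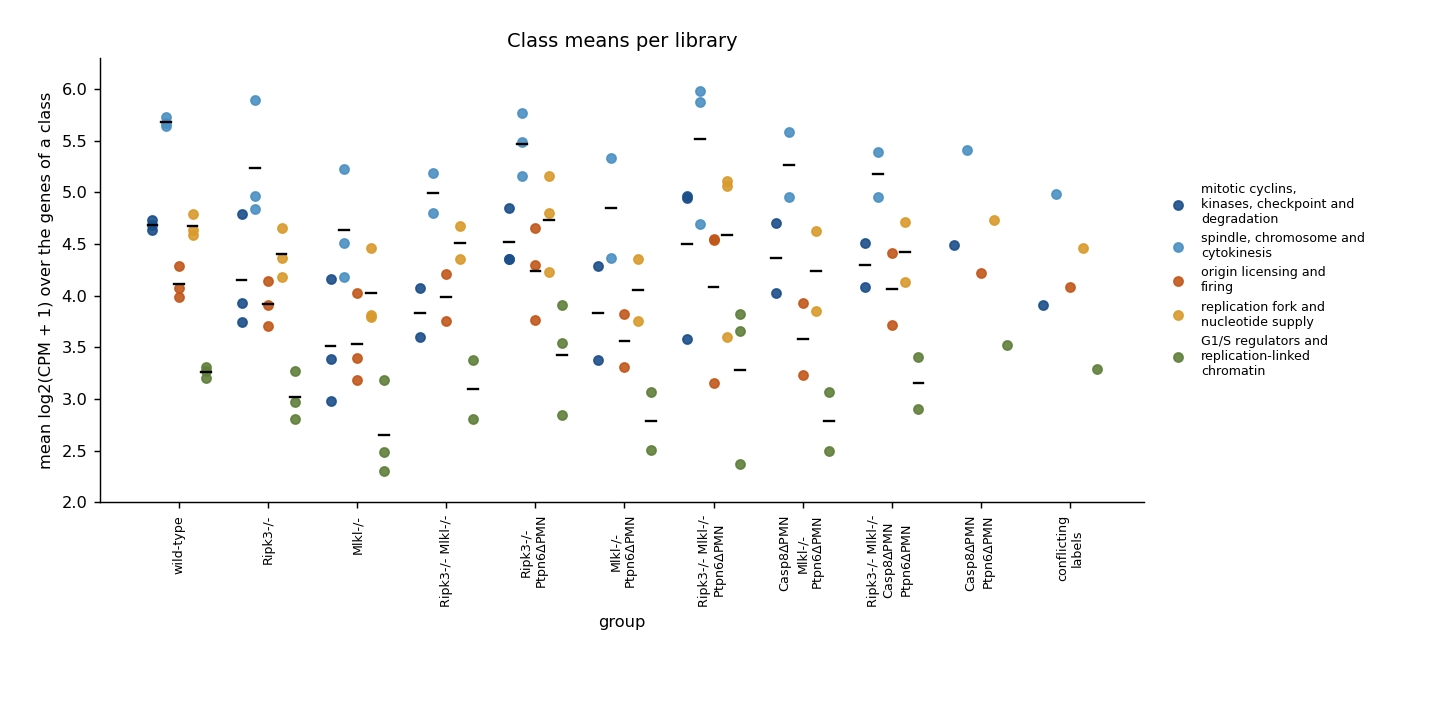
Mean log2(CPM + 1) of the genes of each role class in each library (points), with a line at each group mean. Wild-type libraries lie closest together in every class. Libraries of every other group with replicates spread more widely, those of Ripk3-/- Mlkl-/- Ptpn6∆PMN most.

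Libraries of the same genotype differed from each other outside wild-type, and most of the 42 genes did so together. The ratio of the highest to the lowest library, as the median of the 42 genes, was 1.15 in wild-type, with no gene over 2. It was 1.98 in Ripk3-/- (20 genes over 2), 2.24 in Mlkl-/- (28 genes) and 2.98 in Ripk3-/- Mlkl-/- Ptpn6∆PMN (36 genes). In Ripk3-/- Ptpn6∆PMN it was 1.73 (15 genes), and in the groups of 2 libraries it ran from 1.42 in Ripk3-/- Mlkl-/- to 1.79 in Mlkl-/- Ptpn6∆PMN. In several groups the same library was highest for nearly all genes: Ripk3-/- replicate 1 for 39 of 42, Mlkl-/- replicate 1 for 40, Ripk3-/- Ptpn6∆PMN replicate 3 for 41 and Ripk3-/- Mlkl-/- replicate 2 for 40. In Mlkl-/- Ptpn6∆PMN, Casp8∆PMN Mlkl-/- Ptpn6∆PMN and Ripk3-/- Mlkl-/- Casp8∆PMN Ptpn6∆PMN a single library was highest for all 42. Ripk3-/- Mlkl-/- Ptpn6∆PMN replicate 3 was lowest for 41. Genes measured in one library share its composition and scaling, so these counts are not independent. The steadiest genes were Cdc45, with a ratio of 1.03 in wild-type and 1.07 in Mlkl-/-, and Tyms and Kif23, which gave the lowest ratios in Ripk3-/- Ptpn6∆PMN (1.22) and Ripk3-/- Mlkl-/- Ptpn6∆PMN (1.24).

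Licensing genes did not follow mitotic genes in constant proportion. The mean log2(CPM + 1) of licensing genes minus that of mitotic genes was -0.44, -0.70 and -0.57 in wild-type. It was -0.14, 0.01 and 0.21 in Mlkl-/-, and 0.14 and 0.15 in Ripk3-/- Mlkl-/-, all above wild-type. Ripk3-/- replicate 1, at -0.65, lay among the wild-type libraries, and replicates 2 and 3 at -0.02 and -0.04. With Ptpn6 deleted the values were -0.06, -0.59 and -0.19 in Ripk3-/-, -0.07 and -0.47 in Mlkl-/-, and -0.41, -0.42 and -0.42 in Ripk3-/- Mlkl-/- libraries. The last 3 were alike although their overall levels were 5.01, 4.96 and 3.63. Casp8∆PMN Mlkl-/- Ptpn6∆PMN had the lowest values of all, -0.79 and -0.77. These differences are a description and were not tested.

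**Figure D4:**
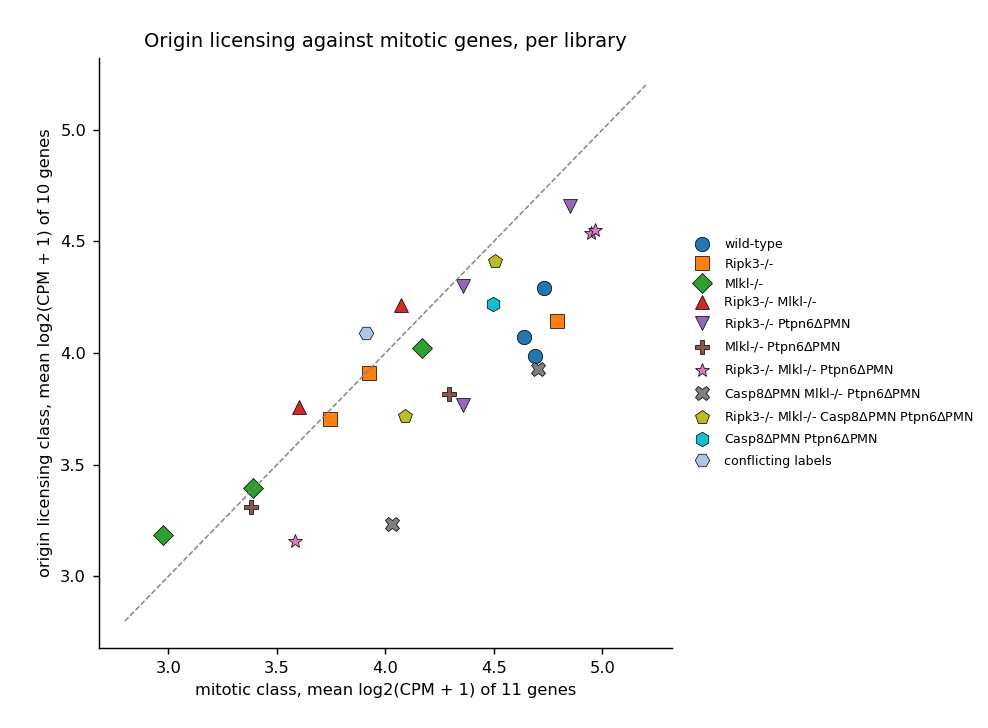
Mean log2(CPM + 1) of the 10 licensing and firing genes against that of the 11 mitotic regulators, with 1 point per library, coloured by genotype, and a dashed line of equality. Wild-type libraries lie together at high mitotic levels, while Mlkl-/- and Ripk3-/- Mlkl-/- libraries lie nearer to the line of equality or above it.

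The next comparisons ask what deletion of Ptpn6 in neutrophils did on each necroptosis-deficient background. Estimates of the 42 genes lay mostly above 0, and none was called by edgeR or DESeq2. In Ripk3-/- the median log2 difference was 0.31 with 40 above 0, in a comparison where 0.0185% of all genes (3) were called and 5.5% had an unadjusted p under 0.05. Without Ripk3-/- Ptpn6∆PMN replicate 1 that comparison called 156 genes. Of the 42, 2 had such a p, Ccne1 (0.95, SE 0.37, adjusted p = 0.755 in edgeR) and the helicase loader Cdc6 (0.83). Ccne1, whose product activates Cdk2 at the G1/S boundary, was the 1 gene with all Ptpn6-deleted libraries above the others (3.78% of genes were), and none lay wholly below (5.44%). In Mlkl-/- the median was 0.17 with 30 above 0, none called (1.51% of genes), 1 at an unadjusted p under 0.05 (17.5% of genes) and none with groups separated upwards (17.6% of genes). With plain library totals that median is -0.09, while the median of all genes moves from -0.04 to -0.30. In Ripk3-/- Mlkl-/- the median was 0.56 with 39 above 0, none called (0.00617% of genes) and 1 at an unadjusted p under 0.05 (5.12%), and for all 42 the groups overlapped (7.63% of genes were separated downwards and 5.79% upwards). The median there was 0.82 for mitotic, 0.67 for spindle and 0.29 for licensing genes.

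Values by library show how far groups overlapped. Ccna2 was at 52.6, 42.04 and 68.7 CPM in Ripk3-/- Ptpn6∆PMN, 23.7 and 45.9 CPM in Mlkl-/- Ptpn6∆PMN, and 86.4, 84.9 and 25.7 CPM in Ripk3-/- Mlkl-/- Ptpn6∆PMN. Ube2c was at 36.7, 37.9 and 51.7, at 22.1 and 33.9, and at 54.5, 55.8 and 22.3 CPM in the same groups. In both genes the third Ripk3-/- Mlkl-/- Ptpn6∆PMN library lay below both libraries with intact Ptpn6, whereas the other two lay above. Mki67 was at 207.1, 165.8 and 268.2, at 99.01 and 234.9, and at 285.5, 249.5 and 116.8 CPM. Top2a was at 100.9, 74.5 and 132.6, at 36.8 and 95.1, and at 168.2, 152.1 and 50.9 CPM. Mki67 and Top2a split the last group in the same way. Mcm7 was at 40.3, 24.5 and 49.0, at 15.9 and 24.4, and at 51.9, 47.8 and 14.8 CPM, and Mcm4 at 34.2, 25.1 and 40.7, at 21.1 and 29.2, and at 37.4, 37.4 and 22.8 CPM. Pcna was at 45.8, 27.4 and 55.1, at 20.2 and 30.8, and at 64.1, 57.6 and 16.0 CPM, and Rrm2 at 40.4, 28.1 and 63.8, at 16.3 and 33.6, and at 67.2, 64.2 and 17.4 CPM. Pcna and Rrm2 repeat the pattern, with replicate 3 below both libraries with intact Ptpn6 and the other two above. Uhrf1 had the widest split of these, at 62.6, 48.7 and 9.045 CPM in Ripk3-/- Mlkl-/- Ptpn6∆PMN, with 34.7, 23.5 and 47.6 and with 13.0 and 25.3 CPM in the other groups. E2f1 was at 10.7, 8.024 and 14.8, at 8.914 and 9.189, and at 11.6, 12.5 and 8.458 CPM.

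In that last group B cell markers summed to 1893, 1337 and 423 CPM and stem and early progenitor markers to 369, 280.2 and 122.8 CPM in replicates 1 to 3, so they were low in the library in which the 42 genes were low. In Mlkl-/- Ptpn6∆PMN, B cell markers summed to 413.4 and 469.7 CPM and progenitor markers to 136.5 and 214.2 CPM, with the higher library again that of the 42 genes. In Casp8∆PMN Mlkl-/- Ptpn6∆PMN the order was the same (421.3 and 540 CPM, and 163.5 and 186.9 CPM). It was reversed in Ripk3-/- Mlkl-/- Casp8∆PMN Ptpn6∆PMN, at 569.6 and 988.4 CPM and at 188.7 and 218.7 CPM. In Ripk3-/- Ptpn6∆PMN both sums were highest in replicate 1 (1321, 658.5 and 886.1 CPM, and 268.7, 223.7 and 247 CPM). There most of the 42 were highest in replicate 3 and lowest in replicate 2. The part of these markers in these levels was not tested. Without replicate 3 of Ripk3-/- Mlkl-/- Ptpn6∆PMN the median Ptpn6 difference on that background was 0.93.

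Averaged over the 3 backgrounds, the median log2 difference after Ptpn6 deletion was 0.38 with 39 of 42 above 0. None was called, where 1.55% of all genes were, and 5 had an unadjusted p under 0.05 (11.9%, against 15.5% of all genes). These were Ccnb2 (0.61, SE 0.21, edgeR adjusted p = 0.14), Plk1 (0.54, SE 0.23), Ccnb1 (0.55), Mcm4 (0.31, SE 0.14) and, in the other direction, Kif23 (-0.27, SE 0.11, edgeR adjusted p = 0.230). Kif23 was at 43.3 and 53.0 CPM in Mlkl-/- Ptpn6∆PMN, below all Mlkl-/- libraries, with a log2 difference of -0.54 (SE 0.20, edgeR adjusted p = 0.176), and 18.1% of genes were separated in that direction. Without Ripk3-/- Ptpn6∆PMN replicate 1, in which Kif23 was highest at 79.5 CPM, its averaged difference was called. That fit called 1037 of all genes, against 251 with all libraries. The test of whether the Ptpn6 difference depended on the background called none of the 42 (0% of all genes), had none at an unadjusted p under 0.05 (6.5% of genes) and gave a smallest adjusted p of 0.794 in edgeR.

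With Casp8 deleted in addition, edgeR and DESeq2 called none of the 42 genes on either background. In Mlkl-/- Ptpn6∆PMN the median was 0.26 with 35 of 42 above 0, 0.58 for mitotic genes, and none called (0% of genes), with 1 at an unadjusted p under 0.05 (9.35%). The sign of that median rested on single libraries: it was -0.10 without Casp8∆PMN Mlkl-/- Ptpn6∆PMN replicate 2, -0.08 without Mlkl-/- Ptpn6∆PMN replicate 1 and 0.75 without Mlkl-/- Ptpn6∆PMN replicate 2. In 7 genes (Ccnb2, Cdc20, Aurka, Birc5, Kif23, Cdc45 and Tyms) both Casp8-deleted libraries lay above the others, against 21.4% of all genes. The largest edgeR evidence was for Birc5, at 25.8 and 33.96 CPM against 13.2 and 21.04 CPM (0.81, SE 0.29, adjusted p = 0.393). In Ripk3-/- Mlkl-/- Ptpn6∆PMN the median was -0.29 with 39 below 0, -0.51 for spindle genes, none called (0%) and 0 at an unadjusted p under 0.05 (4.63%). Between the 2 backgrounds the median difference was -0.58 with 41 of 42 below 0, none called (0.00617% of genes) and 2 at an unadjusted p under 0.05 (9.29%). Its medians were -0.87 for mitotic, -0.89 for spindle and -0.16 for licensing genes. Birc5 differed by -1.16 (SE 0.39, adjusted p = 0.442 in edgeR) between them.

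Ccna2 was at 38.7 and 64.4 CPM in Casp8∆PMN Mlkl-/- Ptpn6∆PMN and 46.9 and 36.9 CPM in Ripk3-/- Mlkl-/- Casp8∆PMN Ptpn6∆PMN. Ube2c was at 32.4 and 58.2 and at 37.2 and 28.8 CPM, Mki67 at 127.3 and 198.9 and at 205.7 and 134.5, and Top2a at 61.5 and 108.5 and at 90.5 and 71.2. For each of these genes the Casp8-deleted groups overlapped each other and the values without the Casp8 deletion given above on their own backgrounds. Mcm7 was at 14.5 and 30.7 and at 40.2 and 25.5 CPM, Mcm4 at 21.7 and 29.3 and at 32.1 and 21.7, and Pcna at 20.7 and 34.2 and at 36.1 and 28.6. Rrm2 was at 19.0 and 40.2 and at 35.6 and 22.9 CPM, Uhrf1 at 13.5 and 30.0 and at 32.2 and 18.8, and E2f1 at 8.015 and 14.6 and at 12.1 and 9.613. In the single inflamed Casp8∆PMN Ptpn6∆PMN library Ccna2 was at 54.3, Mki67 at 193.4, Mcm7 at 33.6, Pcna at 39.95 and E2f1 at 14.0 CPM. The mean log2(CPM + 1) over the 42 genes was 4.58 there, against 4.59 to 4.73 in wild-type, with no replicate to set an error. In the library with contradictory labels it was 4.22. Across all 9 groups at once, none of the 42 was called in edgeR (1.58% of genes were) and 2 had an unadjusted p under 0.05 (22% of genes), Birc5 (adjusted p = 0.15) and Ccnb2 (adjusted p = 0.168) being nearest to the threshold. DESeq2 called these 2 genes, but it also called many more of all genes, with the count in the last paragraph. Without Ripk3-/- Mlkl-/- Ptpn6∆PMN replicate 3 the edgeR test called 5 of the 42, Birc5, Ccnb2, Ccne1, Cdc20 and Ube2c. That fit called 3315 of all genes, against 256 with all libraries.

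Another 106 cell cycle genes in 6 lists, of which 105 were in the table and 103 tested, place the 42 in their pathway. In Mlkl-/- against wild-type, 87 of the 103 had estimates below 0 with a median of -0.73. An unadjusted p under 0.05 was found for 52 (50.5%, against 19.4% of all genes tested). Of the 103, 1 was called higher and 0 lower, where 1.16% of all genes were called. Of 36 kinetochore, spindle, condensin and cytokinesis genes, 34 were below 0 with a median of -1.13 and 31 had an unadjusted p under 0.05 (86.1%). The largest differences were those of the checkpoint kinase Ttk (-1.47, SE 0.52) and the spindle protein Ckap2 (-1.40, SE 0.35, edgeR adjusted p = 0.0557). All 8 genes of the CDK switch and replication kinases were below 0 with a median of -0.91, led by Pkmyt1 (-1.23), which phosphorylates Cdk1, and Cdc7 (-0.99), which fires origins. Of 30 genes of origin recognition, GINS and polymerases, 28 were below 0 with a median of -0.62, led by Ticrr (-1.26) and Gins1 (-1.24). G1 cyclins and their kinases had a median of -0.34, with Ccnd1 at -0.77 and Cdk4 at -0.75. Pocket proteins, E2F and mitotic transcription factors had a median of -0.30, with E2f7 at -1.01 and Foxm1, an activator of late genes, at -0.98. These lists follow the same division as the 42 genes, with mitotic genes furthest from wild-type, and no member of these 5 lists was called. They were measured in the same libraries and chosen with earlier results of these data known, so they are not independent of the 42.

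The called gene was Cdkn1b, which encodes the CDK inhibitor p27 that restrains cyclin E and accumulates in cells leaving the cycle. It was at 163.4, 176.5 and 195.6 CPM in wild-type and 245.9, 247.9 and 255.5 CPM in Mlkl-/-, a log2 difference of 0.47 (SE 0.10, adjusted p = 0.0301 in edgeR), and it was higher in 3 of 3 libraries. Leaving out each library in turn ended the call in 5 of 6 fits (adjusted p from 0.0381 to 0.194 in edgeR), as did plain library totals (0.29, adjusted p = 0.194). Cdkn1b also differed from wild-type by 0.47 in Ripk3-/- Mlkl-/- (edgeR adjusted p = 0.0548) and 0.39 in Ripk3-/- (edgeR adjusted p = 0.219). Every other tested group had a mean above the wild-type mean of 178.5 CPM, from 222.3 to 268.9 CPM. The difference was thus not particular to Mlkl-/-. The largest differences of the CDK inhibitor list were those of Cdkn3 (-1.46, SE 0.37, edgeR adjusted p = 0.0557), a phosphatase that acts on Cdk2, and Cdkn1a (p21, -1.05, SE 0.52), neither of which was called. After Ptpn6 deletion, Cdc25b, the phosphatase that activates CDKs at mitotic entry, was called. It was at 89.6, 105.3 and 87.1 CPM in Mlkl-/- and 156.0 and 204.2 CPM in Mlkl-/- Ptpn6∆PMN (0.93, SE 0.18, adjusted p = 0.0253 in edgeR). Averaged over backgrounds it rose by 0.64 (SE 0.10, adjusted p = 0.00593 in edgeR). With each library left out in turn, the averaged call held in 15 of 16 edgeR fits and ended without Mlkl-/- Ptpn6∆PMN replicate 2 (adjusted p = 0.0524). That in Mlkl-/- ended in 4 of 5 such edgeR fits (adjusted p from 0.0181 to 0.448). Across the 9 groups Cdc25b and the histone variant gene H2afz were called (adjusted p = 0.038 for both in edgeR), where 1.58% of all genes were. In the averaged Ptpn6 comparison 92 of the 103 genes were above 0 with a median of 0.27. Cdc25b was the 1 called, where 1.55% of all genes were.

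**Figure D5:**
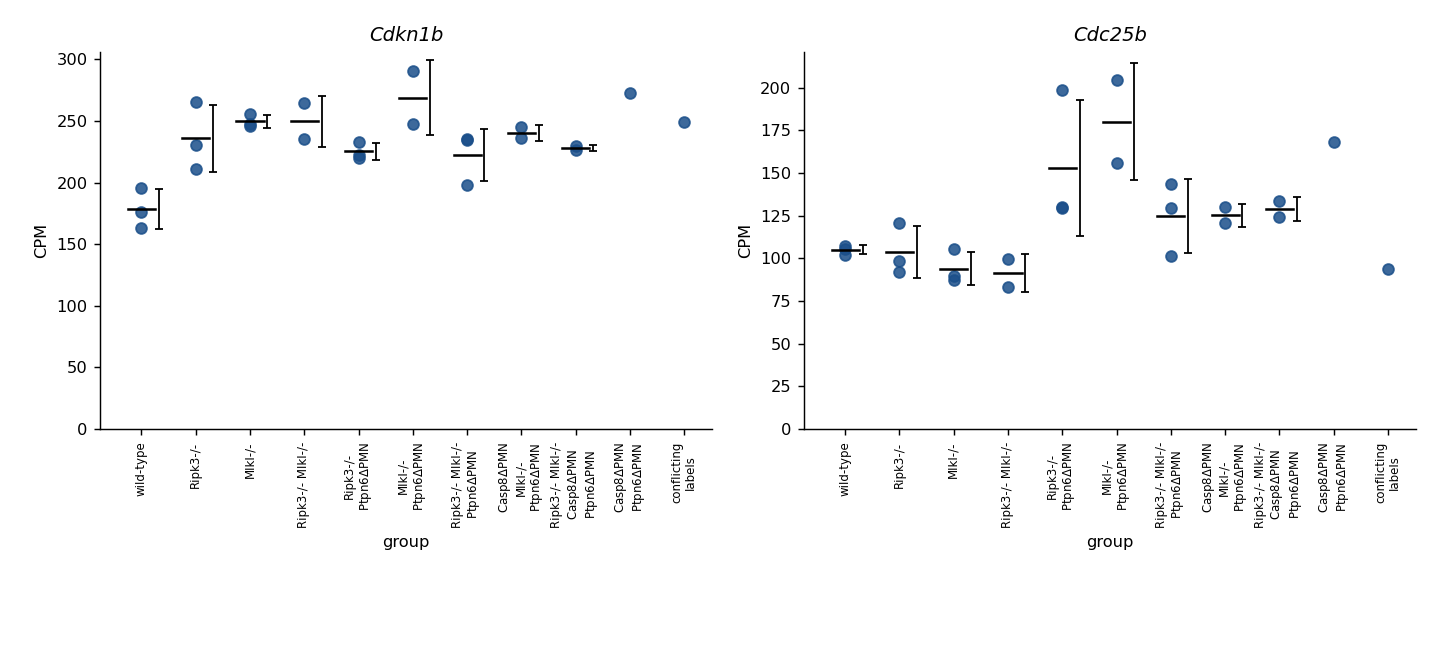
CPM of Cdkn1b and Cdc25b in each library by genotype, with a line at each group mean and bars of 1 SD. The 3 wild-type libraries are lowest for Cdkn1b, at 163.4 to 195.6 CPM, and Mlkl-/- Ptpn6∆PMN libraries are high for Cdc25b, at 156.0 and 204.2 CPM.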

How the data were processed

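Poly(A)-selected RNA of 25 mouse marrow libraries was read as 100 bp pairs. The deposited values are estimated counts by gene symbol in a single table, which the authors made from the reads with tools that the submitters' processing notes name as Salmon 0.14.1, DESeq2 and genome build GRCm38.p6, without their roles. Every column matched a library (0 unmatched). Counts were rounded, filtered (filterByExpr, minimum count 10, minimum total 15) and scaled with TMM in edgeR 4.0.16 (R 4.3.3), and edgeR's quasi-likelihood test was applied to 1 model of 23 libraries and 9 groups (14 residual degrees of freedom, common biological coefficient of variation 21.2%). P-values were adjusted over 16206 genes by Benjamini-Hochberg, with a threshold of 0.05. CPM in the text is over TMM-scaled totals of all 25 libraries. The estimated counts have no interval for ambiguous assignment, and depth was near equal. Alternatives were DESeq2 1.42.0 (its size factors and its test), plain library totals, no filter, fits of the compared libraries alone, the replicate block, and leaving out each library. The edgeR steps were tested on simulated data. The 42 genes, the role classes and the other lists were chosen with earlier results of these data known.

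All 42 genes were named with their range. Values by library were given for genes called, for the 2 with the highest mean CPM per role class and, in the comparison with the largest median difference, for the 3 with the largest and 3 with the smallest differences. Of other cell cycle genes, those called and the 2 with the largest differences per list were named for the Mlkl-/- comparison. Other genes were named after their values were seen. Marker lists were summed per library. Motifs were counted in RefSeq promoters of GRCm38.p6.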

Additional observations from a re-analysis of the deposited data

How the results depend on the processing

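For Mlkl-/- against wild-type, edgeR called 0 of the 42 genes with all libraries, 3 with no filter on low counts (Birc5, Ccnb2, Plk1), 1 with the replicate block (Ccnb2, adjusted p = 0.049), 10 with DESeq2 and 20 with only the libraries compared. Leaving out 1 library gave 0 to 13 calls and medians from -1.35 to -0.78, lowest and with 13 calls without Mlkl-/- replicate 1. Kif23 turned to -0.10 with plain library totals, which move the median of all genes from -0.03 to -0.21 and that of the 42 from -0.95 to -1.11. For Ripk3-/- Mlkl-/- against wild-type, 19 genes were called with only the libraries compared, and medians were -0.83 to -0.40 over the fits that left out 1 library. For Ripk3-/- against wild-type these medians were -0.71 to -0.22. Over the 9 groups DESeq2 called 2 of the 42 (Birc5, Ccnb2), and leaving out 1 library gave 0 to 5 in edgeR. For Ptpn6 deletion averaged over backgrounds leaving out 1 library gave 0 to 1 call and medians of 0.20 to 0.50. Such medians were 0.0722 to 0.794 for Ripk3-/- Mlkl-/- against Mlkl-/- and -0.34 to 0.57 for Ptpn6 deletion in Mlkl-/-, and also changed sign for Ripk3-/- Mlkl-/- against Ripk3-/- (-0.42 to 0.16) and Casp8 deletion in Mlkl-/- Ptpn6∆PMN (-0.10 to 0.75). Why settings differed was not tested.

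The number of all genes called moved by more than 1.5 times in many settings. Against 188 for Mlkl-/- and wild-type, plain totals gave 83, DESeq2 797, only the libraries compared 891, and leaving out 1 library 38 to 589. Against 169 for Ripk3-/- Mlkl-/- and wild-type, these gave 87, 465, 833 and 19 to 85, and the replicate block 101. Against 37 for Ripk3-/- and wild-type, no filter gave 56, DESeq2 97, only the libraries compared 182 and leaving out 1 library 23 to 38. Against 3 for Ptpn6 deletion in Ripk3-/-, no filter gave 20, DESeq2 35, only the libraries compared 1 and leaving out 1 library 3 to 156, the highest without Ripk3-/- Ptpn6∆PMN replicate 1. Against 244 for Ptpn6 deletion in Mlkl-/-, plain totals gave 432, DESeq2 761, only the libraries compared 532 and leaving out 1 library 2 to 191. Against 251 for the averaged Ptpn6 deletion, plain totals gave 419, no filter 383, DESeq2 664, only the libraries compared 22 and leaving out 1 library 7 to 1037. Against 256 over the 9 groups, plain totals gave 159, no filter 709, DESeq2 2660 and leaving out 1 library 55 to 3315. The labels do not say whether same-numbered libraries share more than a number. Replicate 1 was highest for most of the 42 in wild-type (29), Ripk3-/- (39) and Mlkl-/- (40). It was also highest for most in Ripk3-/- Mlkl-/- Ptpn6∆PMN (24) and Ripk3-/- Mlkl-/- Casp8∆PMN Ptpn6∆PMN (42). In the other tested groups replicate 2 or 3 was highest for most. In no comparison with 3 shared numbers did every pair's deviations correlate above 0.1 (0.295, 0.00309 and 0.0872 for Mlkl-/- and wild-type), and the replicate block changed no other call among the 42. Precision was limited by the 2 or 3 libraries per group, and for Gins2 by counts of 6 to 62.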
